A study of Mus musculus with 8 samples.

Results

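Nonmuscle myosin II and the kinases that switch it on were described in mouse liver by 10 genes, taken by symbol from the 24421 symbols of the count table. They are the heavy chains Myh9, Myh10 and Myh14, the essential light chain Myl6, the regulatory light chains Myl9, Myl12a and Myl12b, and the kinases Rock1, Rock2 and Mylk. All 10 were in the table and all 10 passed the filter on low counts. RNA of whole liver from C57BL/6N mice aged 8 to 10 weeks was sequenced in 4 libraries labelled WT and 4 labelled CAPZ_KO. The CAPZ_KO animals carried Albumin-CreERT2, a Cre recombinase driven in hepatocytes by the albumin promoter and activated by tamoxifen, together with floxed Capzb, which encodes the capping protein subunit that closes the fast-growing ends of actin filaments with its alpha partner. Per the labels, tamoxifen was given in 5 daily injections that began at an age of 4 to 6 weeks. All animals carried the floxed Capzb alleles. The WT group mixed injected animals without the Cre and uninjected animals with it, and the labels do not tell which library is which, so that the deletion cannot be told apart from exposure to tamoxifen or to Cre. Cells other than hepatocytes keep Capzb in both groups. The labels call the replicates separate samples but do not state 1 animal for each library. The p-values therefore cover only the spread among samples, which may be technical.

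Nonmuscle myosin II is the motor that pulls on actin filaments in cells outside muscle. Its heavy chains pair through long coiled-coil tails, carry essential and regulatory light chains at the neck, and assemble into short bipolar filaments. Phosphorylation of the regulatory light chain by the kinases Rock1 and Rock2 (ROCK) or by myosin light chain kinase (MLCK, the product of Mylk) activates the motor, and myosin phosphatase reverses it. In liver this contractility is known for the closure of bile canaliculi between hepatocytes and for the contraction of stellate cells.

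Total counts per library ran from 12060350 to 18916315, and the 10 genes had between 24 and 14500 counts in a library. Levels are given as CPM, counts relative to library size after TMM scaling (which assumes that most genes do not change), and changes as log2 fold changes of CAPZ_KO over WT from the edgeR quasi-likelihood test, with p adjusted over 12985 genes and a threshold of 0.05. Capzb, the targeted gene, was at 120 ± 13.4 CPM in WT and at 72.5 ± 6.80 CPM in CAPZ_KO (SD, n = 4), and every CAPZ_KO library lay below every WT library. Its log2 fold change was −0.73 (adjusted p by edgeR, 0.00134), but −0.10 (adjusted p 0.442) under library sizes alone, where the call was lost. The hepatocyte markers (8 genes, Alb among them) summed to between 161512 and 209546 CPM in WT and between 42018 and 60934 CPM in CAPZ_KO. In RNA of whole liver, a change in the number of cells of a type and a change of RNA per cell cannot be told apart.

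Of the 10 genes, 8 rose in CAPZ_KO and 0 fell, against 22.4% of all tested genes that rose and 19% that fell, 41.4% called in all. At an unadjusted p under 0.05 the count of falls was 0 as well, and DESeq2 and limma-voom gave the same counts of 8 and 0. All 7 chain genes rose, while among the kinases Rock2 rose and Rock1 and Mylk did not pass the test with TMM. Scaled by library sizes alone, all 10 were called higher, but so were 7665 of 8365 called genes, against 2913 of 5382 with TMM, and the median over the tested genes shifted up by 0.62 (log2). The median log2 fold change of the 10 genes was 1.62, beside −0.0029 over all tested genes. In each of the 8 that rose, all 4 CAPZ_KO libraries lay above all 4 WT libraries, which was so for 22.1% of tested genes. By at least 2-fold, 6 of the 10 rose, against 14.1% of tested genes.

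**Figure D1:**
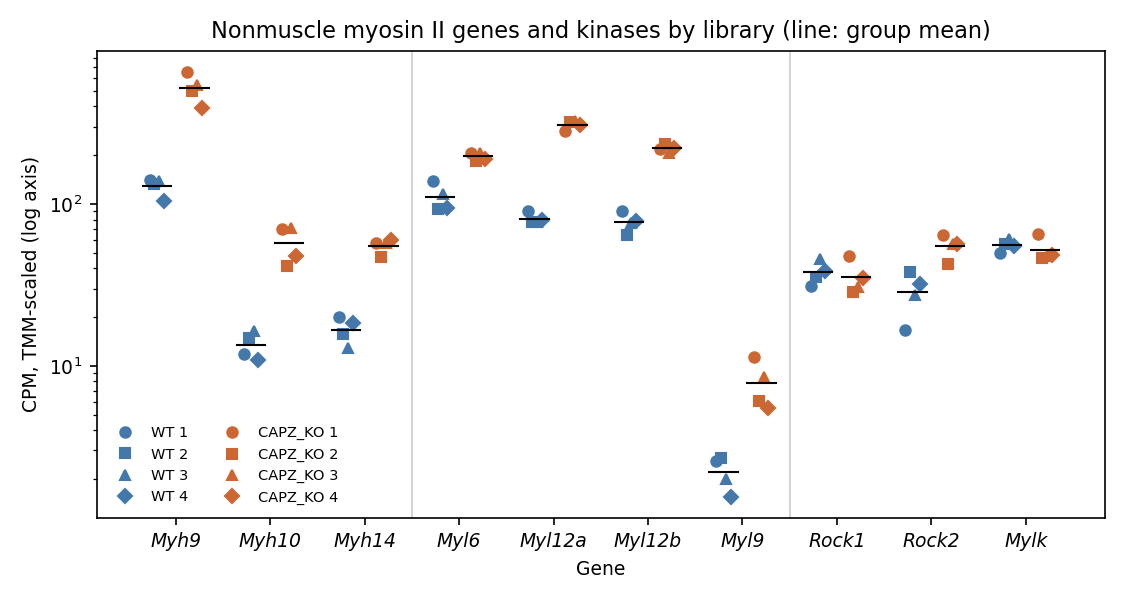
TMM-scaled CPM (log axis) of the 10 genes in each of the 4 WT and 4 CAPZ_KO libraries, 1 symbol per library, with the group mean as a line; heavy chains, light chains and kinases are divided by grey lines. The groups do not overlap in any heavy or light chain gene or in Rock2, and they overlap in Rock1 and Mylk.

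All 3 heavy chains rose. Myh9, the heavy chain of nonmuscle myosin IIA (chromosome 15, 77760587 to 77842175, minus strand, GRCm38), had the highest level per length of the 3. It stood at 141, 134, 139 and 105 CPM in WT 1 to 4 and at 653, 499, 543 and 394 CPM in CAPZ_KO 1 to 4. The lowest CAPZ_KO library was thus 2.79 times the highest WT library. Its log2 fold change was 2.01 ± 0.184 (SE), with an edgeR adjusted p of 4.52e-05. Myh10, the heavy chain of nonmuscle myosin IIB (chromosome 11, 68691559 to 68816632, plus strand), had 11.8, 14.9, 16.5 and 10.8 CPM in WT 1 to 4. In CAPZ_KO 1 to 4 it had 69.6, 41.4, 70.7 and 48.0 CPM, with CAPZ_KO 1 and 3 above the other two. It rose by 2.09 ± 0.216 (SE, edgeR adjusted p = 8.22e-05). Myh14, the heavy chain of nonmuscle myosin IIC, which is known from epithelia (chromosome 7, 44605803 to 44670843, minus strand), had 20.1, 15.7, 12.8 and 18.3 CPM in WT 1 to 4. Its CAPZ_KO libraries held 57.3, 46.9, 57.5 and 59.8 CPM, a narrower spread than for Myh9 and Myh10. It rose by 1.73 ± 0.159 (SE, edgeR adjusted p = 4.64e-05).

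To set genes side by side, levels were divided by kilobases of annotated exon, the union over all transcripts, so that shares depend on the annotation. The heavy chains together went from 13.6 ± 1.37 to 53.5 ± 9.46 CPM per kb (SD, n = 4), a ratio of 3.93. Myh9 held 73.5% ± 2.88 of that sum in WT and 75.2% ± 3.78 in CAPZ_KO (SD, n = 4). Myh10 held 9.47% ± 1.55 and 10.2% ± 1.59, and Myh14 held 17.1% ± 3.94 and 14.5% ± 3.06 (SD, n = 4). These shares overlapped between the groups for each heavy chain. The ratio of Myh10 to Myh9 counts within a library, which does not depend on scaling, differed by 0.07 on the log2 scale between the group means (exact two-sided permutation test of 4 against 4 libraries, p = 0.657, adjusted over 6 ratios 0.657). The ratio of Myh14 to Myh9 was −2.96 ± 0.394 in WT and −3.22 ± 0.352 in CAPZ_KO (log2, SD, n = 4; exact permutation p = 0.343, adjusted 0.514). In both ratios the spread between libraries of a group was larger than the difference. The ratio of Myh14 to Myh9 was highest in WT 4 and CAPZ_KO 4 of their groups, the only libraries with more than 6 counts of Xist, at 5419 and 4067, and with 0 counts of the Y-linked genes Ddx3y and Uty.

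**Figure D2:**
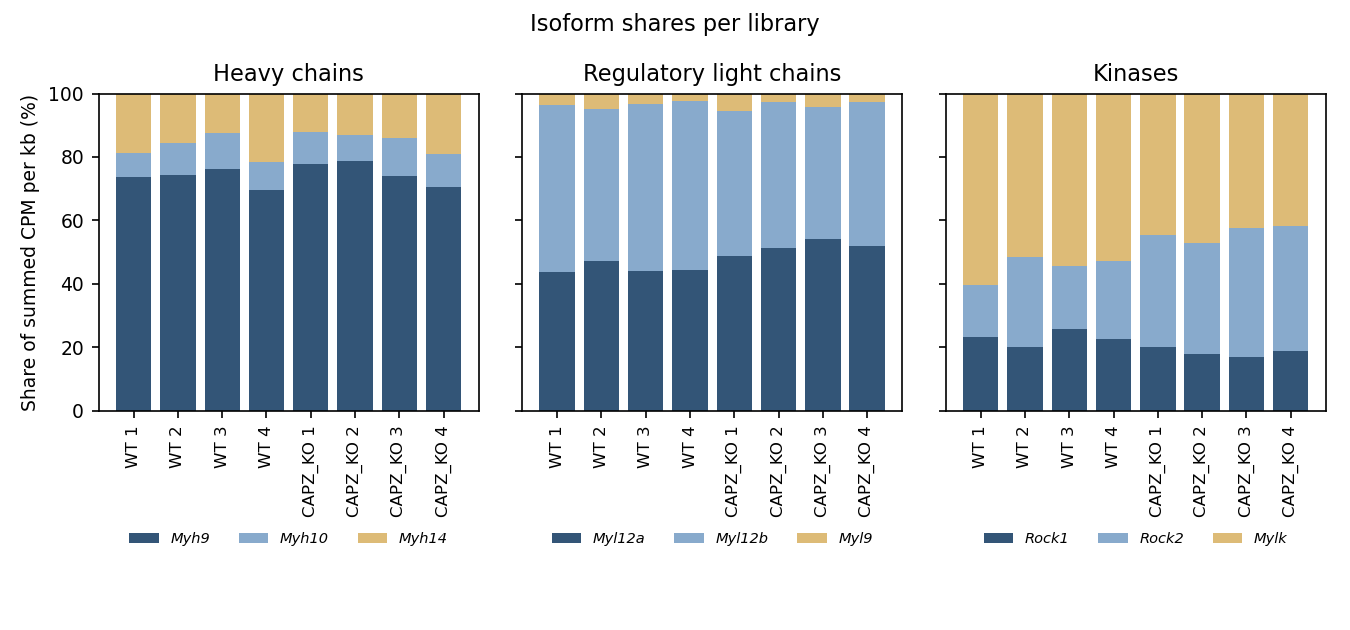
Stacked bars give, for each library, the share (percent) of the summed CPM per kb of exon that each heavy chain, regulatory light chain or kinase took. Myh9 held 73.5% of the heavy chain sum in WT and 75.2% in CAPZ_KO, while Rock2 went from 22.2% to 37.7% of the kinase sum.

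All 4 light chain genes rose. Myl6, the essential light chain that nonmuscle and smooth muscle myosin share (chromosome 10, 128490860 to 128494145, minus strand), had 138, 92.7, 114 and 93.7 CPM in WT 1 to 4 and 207, 185, 205 and 189.7 CPM in CAPZ_KO 1 to 4. The groups were apart, with WT 1 the closest to CAPZ_KO. Its rise of 0.84 ± 0.151 (SE, edgeR adjusted p = 0.00166) was the smallest among the 7 chain genes in this fit, and its difference from the other rises was not tested.

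The regulatory light chains are the subunits that ROCK and MLCK phosphorylate. Myl12a (chromosome 17, 70993656 to 71002878, minus strand) had 90.9, 77.1, 77.1 and 79.2 CPM in WT 1 to 4 and 283, 319, 327 and 307 CPM in CAPZ_KO 1 to 4. It rose by 1.93 ± 0.123 (SE, edgeR adjusted p = 7.39e-06), and the CAPZ_KO libraries lay close together. Its neighbour Myl12b (chromosome 17, 70973133 to 70990890, minus strand) had 90.6, 64.2, 76.3 and 78.2 CPM in WT 1 to 4. In CAPZ_KO 1 to 4 it had 218, 234, 207 and 222 CPM, all far above WT. It rose by 1.51 ± 0.134 (SE, edgeR adjusted p = 3.80e-05). Myl12a and Myl12b are close paralogs, and an annotated transcript model under the symbol Myl12b covers 13.8% of the exon bases of Myl12a on the same strand, so that the division of reads between them is uncertain. Summed into 1 row, an alternative chosen after the data were seen, they rose by 1.74. Myom1, whose exons overlap 6.16% of those of Myl12a on the opposite strand, had 58 counts over the WT libraries and 169 over the CAPZ_KO libraries, while Myl12a had at least 848 in each library.

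Myl9 is the regulatory light chain best known from smooth muscle, and had the fewest counts of the 10 genes (chromosome 2, 156775420 to 156781658, plus strand). It had 24 to 41 counts in the WT libraries, or 2.57, 2.70, 1.99 and 1.56 CPM in WT 1 to 4. In CAPZ_KO 1 to 4 it had 11.3, 6.03, 8.59 and 5.47 CPM, with CAPZ_KO 1 and 3 highest, as for Myh10. It rose by 1.84 ± 0.292 (SE, edgeR adjusted p = 8.32e-04). The markers of smooth muscle, which express Myl9, stood beside it. Of 8 such markers 4 could be tested and 3 rose, and their summed level was 11.995 to 22.1 CPM in WT and 35.5 to 76.8 CPM in CAPZ_KO, with CAPZ_KO 1 at 76.8 and CAPZ_KO 3 at 60.5. The 3 markers that rose were highest in CAPZ_KO 1 and 3. Myh11, tested but not called and chosen after its values were seen, had 3.56, 2.69, 1.81 and 2.45 CPM in CAPZ_KO 1 to 4. The part of smooth muscle in the rise of Myl9 was not tested.

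The ratio of Myl12a to Myl12b counts stood apart between the groups but did not pass the test after adjustment. Myl12a counts were 100.4%, 120.1%, 101% and 101% of Myl12b counts in WT 1 to 4 and 129.7%, 136%, 158% and 138% in CAPZ_KO 1 to 4. Every CAPZ_KO library lay above every WT library. The log2 ratio differed by 0.41 (exact two-sided permutation test, p = 0.0286, the smallest that 4 against 4 libraries allow), and adjusted over the 6 ratios the exact p was 0.0571, above the threshold. Whether that smallest p passes after adjustment depends on how many of the other ratios reach it. Whether the overlap of annotated models named above entered the counts is not known, and its part in this ratio was not tested. The ratio of Myl9 to Myl12b differed by 0.26 between group means of −5.13 ± 0.441 and −4.87 ± 0.524 (log2, SD, n = 4; exact permutation p = 0.486, adjusted 0.583), and the groups overlapped.

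The promoter sequences of the light chain genes are shown for a motif of SRF, the transcription factor that the actin-regulated coactivators MRTF bind, and for that of AP-1. RefSeq windows (GRCm38.p6) of 250 bases before to 50 after a start site were searched on both strands for 9 of the 10 genes (all but Rock1), 10 windows in all. A perfect CArG box, the SRF motif, was found in 2 of these windows, those of Myl9 and of an inner start of Myl6, and in 1.63% of the 32851 windows of all genes. In Myl9 it begins 161 bases before the start, and in Myl6, where it lies in an annotated exon of a longer transcript, 50 bases before it. The AP-1 motif TGAGTCA, which reads TGACTCA on the other strand, was found in the windows of Myl12a, also in an annotated exon, and of Mylk, and in 5.20% of all windows. The Mylk window (chromosome 16, 34784700 to 34784999) is that of an inner start, as the annotated gene begins at 34745210. The TEAD motif GGAATG, or CATTCC on the other strand, was found in 3 windows, of Myh10, Mylk and Myl12a, and in 14.7% of all. No motif overlapped another in these windows. The stretches below run 5′ to 3′ along the gene, with the motif in capitals.
Myl9, chr2:156775258-156775357, plus strand: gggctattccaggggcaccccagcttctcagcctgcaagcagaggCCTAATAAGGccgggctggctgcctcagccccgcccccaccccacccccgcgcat
Myl6, chr10:128493040-128493069, minus strand: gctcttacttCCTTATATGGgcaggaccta
Myl12a, chr17:71002654-71002680, minus strand: acctagacagTGAGTCAccctagcttc
Mylk, chr16:34784846-34784920, plus strand: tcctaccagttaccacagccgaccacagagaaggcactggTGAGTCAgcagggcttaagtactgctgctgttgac
The windows of Myh9, Myh14, Myl12b and Rock2, of which all rose, held no match to these 3 motifs, and that of Mylk, which did not pass the test, held 2. A match is a description of the letters and not evidence of binding.

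Of the 3 kinases, Rock2 alone passed the test with TMM. Rock2 (chromosome 12, 16894895 to 16987823, plus strand) had 16.7, 37.9, 27.3 and 31.8 CPM in WT 1 to 4. In CAPZ_KO 1 to 4 it had 64.6, 42.4, 56.4 and 56.5 CPM. The groups were apart, but the lowest CAPZ_KO library was only 1.12 times the highest WT library. Rock2 rose by 0.95 ± 0.231 (SE, edgeR adjusted p = 0.00862), with 0.76 without WT 1, the lowest library. Rock1, the other ROCK (chromosome 18, 10064401 to 10182045, minus strand), had 31.2, 35.5, 45.9 and 38.3 CPM in WT 1 to 4 and 47.5, 28.4, 30.8 and 34.8 CPM in CAPZ_KO 1 to 4. The groups overlapped, with both the highest and the lowest values in CAPZ_KO. The TMM-scaled change was −0.09 ± 0.184 on the log2 scale (SE; adjusted p by edgeR, 0.71), and 0.54 under library sizes alone (adjusted p = 0.0419), which is −0.081 relative to the median of all genes.

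Mylk, which also gives shorter and longer products in smooth muscle and endothelium (chromosome 16, 34745210 to 35002420, plus strand), had 49.98, 56.5, 60.7 and 55.2 CPM in WT 1 to 4. In CAPZ_KO 1 to 4 it had 65.7, 46.1, 47.7 and 48.1 CPM. CAPZ_KO 1 lay above every WT library and the other 3 below every WT library. Over all libraries the change was −0.10 ± 0.140 on the log2 scale (SE; adjusted p by edgeR, 0.595), and −0.27 without CAPZ_KO 1 (adjusted p = 0.118). Under library sizes alone it was 0.53 (adjusted p = 0.0167), or −0.089 relative to the median of all genes. Counts per symbol do not separate the products of this gene. E130310I04Rik, an antisense gene whose exons overlap 4.87% of those of Mylk, had 2 counts over the WT libraries and 26 over the CAPZ_KO libraries.

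**Figure D3:**
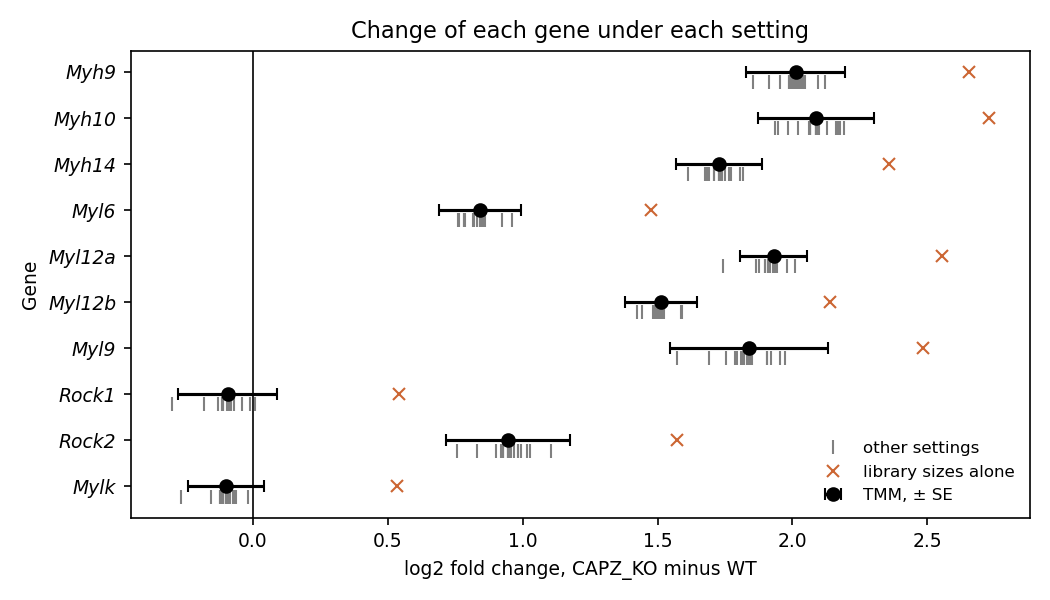
log2 fold change (CAPZ_KO minus WT) of each gene with TMM (black points, bars ± SE), under library sizes alone (crosses) and under the other settings tried (grey ticks). Rock1 and Mylk sit at −0.09 and −0.10 with TMM and at 0.54 and 0.53 under library sizes alone, and the other 8 genes stay above 0 in every setting plotted.

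Ratios within a library set the kinases against each other free of scaling. Rock2 counts were 53.6%, 107%, 59.5% and 83.1% of Rock1 counts in WT 1 to 4. In CAPZ_KO 1 to 4 they were 136%, 149%, 183% and 162%, all above WT. The log2 ratio differed by 1.10 (exact two-sided permutation p = 0.0286, adjusted over the 6 ratios 0.0571). Mylk counts were 299%, 149%, 222% and 173% of Rock2 counts in WT 1 to 4 and 102%, 109%, 84.5% and 85.1% in CAPZ_KO 1 to 4, again with the groups apart. The log2 ratio differed by −1.11 (exact two-sided permutation p = 0.0286, adjusted 0.0571). Neither difference between kinases passed the threshold after adjustment. Each exact p was the smallest that 4 against 4 libraries allow, and whether it passes depends on how many other ratios reach it. The failure to pass therefore says little of either ratio. These percentages are of counts, not per length. Per kilobase of exon, Rock2 took 22.2% ± 5.18 of the sum of the 3 kinases in WT and 37.7% ± 2.86 in CAPZ_KO, and Mylk took 54.8% ± 3.84 and 43.8% ± 2.41 (SD, n = 4).

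**Figure D4:**
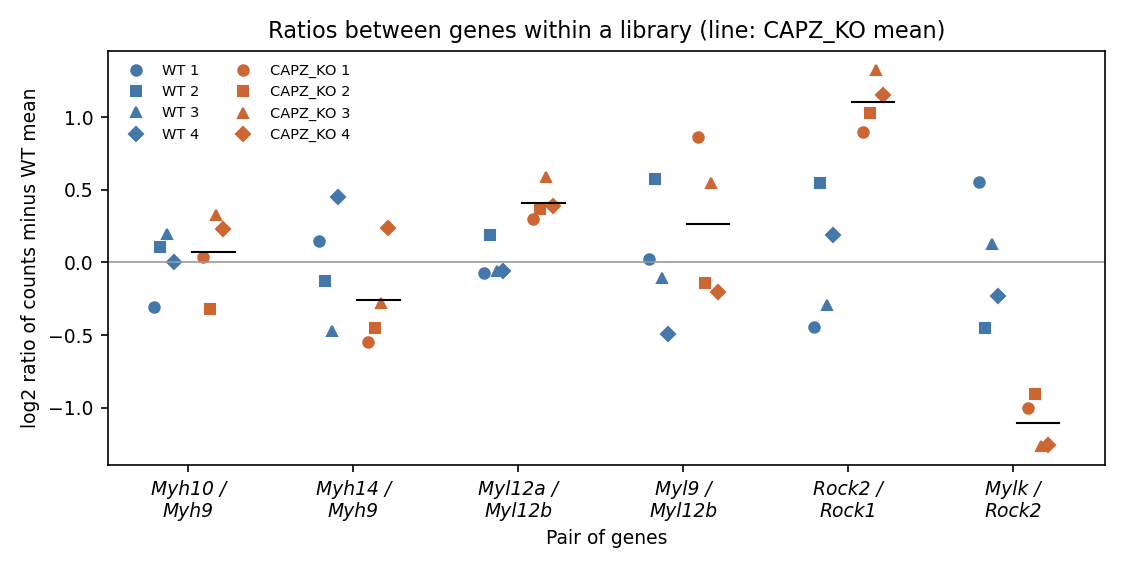
log2 ratio of counts of 6 pairs of genes within each library, minus the mean of the WT libraries, with 1 symbol per library and the CAPZ_KO mean as a line. The 4 CAPZ_KO libraries stand apart from the 4 WT libraries for Myl12a to Myl12b, Rock2 to Rock1 and Mylk to Rock2, and overlap them for the other 3 pairs.

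The levels per kilobase of exon were ranked in each group. In WT the order ran Myl6 (34.4 ± 6.70 CPM per kb, SD, n = 4), Myl12b (27.9 ± 3.91), Myl12a (24.1 ± 1.98), Myh9 (10.0 ± 1.32), Mylk (4.93 ± 0.392), Myh14 (2.30 ± 0.434), Rock1 (2.09 ± 0.342), Rock2 (2.05 ± 0.643), Myl9 (1.90 ± 0.458) and Myh10 (1.29 ± 0.251). The ranges of neighbours overlapped among the first 3 and among the last 5 genes of that order, and were apart elsewhere. In CAPZ_KO it ran Myl12a (91.9 ± 5.67), Myl12b (79.5 ± 4.07), Myl6 (61.7 ± 3.46), Myh9 (40.4 ± 8.31), Myh14 (7.61 ± 0.793), Myl9 (6.75 ± 2.30), Myh10 (5.49 ± 1.43), Mylk (4.60 ± 0.820), Rock2 (3.96 ± 0.664) and Rock1 (1.96 ± 0.471), in CPM per kb with SD and n = 4. There the ranges overlapped between Myl12a and Myl12b and between neighbours from Myh14 to Rock2. Mylk stood above Myh14 in WT, with ranges apart, and below it in CAPZ_KO. Lengths are exon unions of GENCODE vM21 over all transcripts of a gene, and can exceed the length of any 1 transcript. That of Myl6 is 3187 bases, nearly the whole gene (128490860 to 128494145). The order across genes therefore depends on the annotation, and the lengths serve only to set genes side by side.

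The libraries within a group were not alike in these genes. Among the WT libraries, WT 1 was the highest in 5 of the 10 genes and WT 4 in 0. CAPZ_KO 1 was the highest of its group in 6 of the 10 genes and CAPZ_KO 2 the lowest in 6. CAPZ_KO 1 also had the highest sum of the stellate cell and fibroblast markers (1451 CPM, against 1094 to 1135 in the other CAPZ_KO libraries) and of the bile duct cell markers (1087 CPM, against 367 to 761). Spp1 alone made up 1010 CPM of the latter sum, while the duct keratins Krt7 and Krt19 were lower in CAPZ_KO 1, at 3.56 and 7.34 CPM, than in any other CAPZ_KO library. In the stellate and fibroblast sum, Col3a1 had 473 CPM in CAPZ_KO 1, against 169 to 325 in the other CAPZ_KO libraries. Dcn went the other way, with 411 CPM in CAPZ_KO 1 against 414 to 469. CAPZ_KO 2 held 46.3 CPM of skeletal muscle markers, against 1.18 to 1.94 in the other CAPZ_KO libraries. Without CAPZ_KO 1 the same 8 genes were called, with log2 fold changes of 1.85 for Myh9 and 1.57 for Myl9.

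Myosin phosphatase removes the phosphate from the regulatory light chain. Of 8 genes of the phosphatase and its inhibitors, 6 were tested, 2 rose and 0 fell by edgeR, DESeq2 and limma-voom alike, with a median log2 fold change of 0.17. Ppp1r14b, an inhibitor of the phosphatase, rose from 10.1 ± 2.23 to 17.8 ± 2.21 CPM (SD, n = 4), by 0.82 ± 0.179 (SE, edgeR adjusted p = 0.00479). Ppp1r12c, a targeting subunit, had a log2 fold change of 0.37 with an edgeR adjusted p of 0.0348, which became 0.0666 to 0.129 without WT 2, WT 3 or any CAPZ_KO library. The catalytic subunit Ppp1cb and the targeting subunit Ppp1r12a, chosen after their values were seen, had −0.16 and 0.23 (edgeR adjusted p = 0.409 and 0.467).

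Of 10 other kinases of the regulatory light chain, 7 were tested, 1 rose and 1 fell, with a median of 0.30. Cdc42bpg, a kinase of the MRCK family, rose from a mean of 12.5 to a mean of 26.1 CPM (n = 4 each; by edgeR the adjusted p was 5.02e-04). Dapk1, the death-associated protein kinase, had a log2 fold change of −0.48 with an edgeR adjusted p of 0.0486, which became 0.0621 to 0.107 when any library but WT 3 or CAPZ_KO 1 was left out and 0.0505 to 0.0962 with limma-voom, upper quartile scaling, non-robust dispersion or either other filter. Its change was 0.15 under library sizes alone. Among 19 other class II myosin genes, those of smooth, skeletal and cardiac muscle, 5 had enough counts and 0 were called by edgeR, 1 at an unadjusted p under 0.05, 1 by DESeq2 and 0 by limma-voom. The smooth muscle heavy chain Myh11, chosen after its values were seen, averaged 1.45 ± 0.551 CPM in the WT libraries and 2.63 ± 0.722 CPM in the others (SD, n = 4; by edgeR the adjusted p was 0.0622).

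Of 14 partners of myosin II, 9 rose and 1 fell, with a median of 0.70. Shroom3, a scaffold that recruits ROCK to apical junctions, rose from 7.39 ± 1.27 to 27.0 ± 3.27 CPM (SD, n = 4), by 1.87 ± 0.158 (SE, edgeR adjusted p = 3.22e-05). Cald1, caldesmon, which binds actin and myosin, rose by 0.90, Llgl1, a polarity protein that binds myosin II, by 0.76 and Sept2, a septin scaffold, by 0.64. The member that fell was Shroom1, at −1.14 ± 0.255 (SE, edgeR adjusted p = 0.00545), with an adjusted p of 0.0811 under library sizes alone.

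The unconventional myosins, which do not form filaments of the class II kind, were set beside the myosin II genes. Of 24, 16 were tested, 9 rose and 1 fell. Their median change was 0.72 (log2). Myo9b rose from 26.1 ± 4.66 to 77.4 ± 2.65 CPM (SD, n = 4; by edgeR the adjusted p was 4.38e-05), Myo1c, which tethers membranes to actin, by 1.41 and Myo1f, a myosin of leukocytes, by 1.55. Myo7b, a myosin of intestinal and renal brush borders, had 2 counts over the WT libraries, both in WT 4, and 471 in CAPZ_KO. It is 1 of the 9 that rose, but it passed the filter on low counts through CAPZ_KO alone, so that only a rise could be called. After scaling, CAPZ_KO was 162 times WT, and the exact 95% interval for counting error ran from 44.7 to 1345. Its fitted log2 fold change was 7.06 and 9.62 without WT 4. The counts of these 5 lists stand beside 22.4% of all tested genes that rose and 19% that fell. Of the phosphatase genes 2 of 6 were called, of the other light chain kinases 2 of 7 and of the muscle class II genes 0 of 5. Over all tested genes 41.4% were called. Of the partners of myosin II 10 of 14 were called, and of the unconventional myosins 10 of 16. The lists are small, and no difference from the 41.4% was tested.

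**Figure D5:**
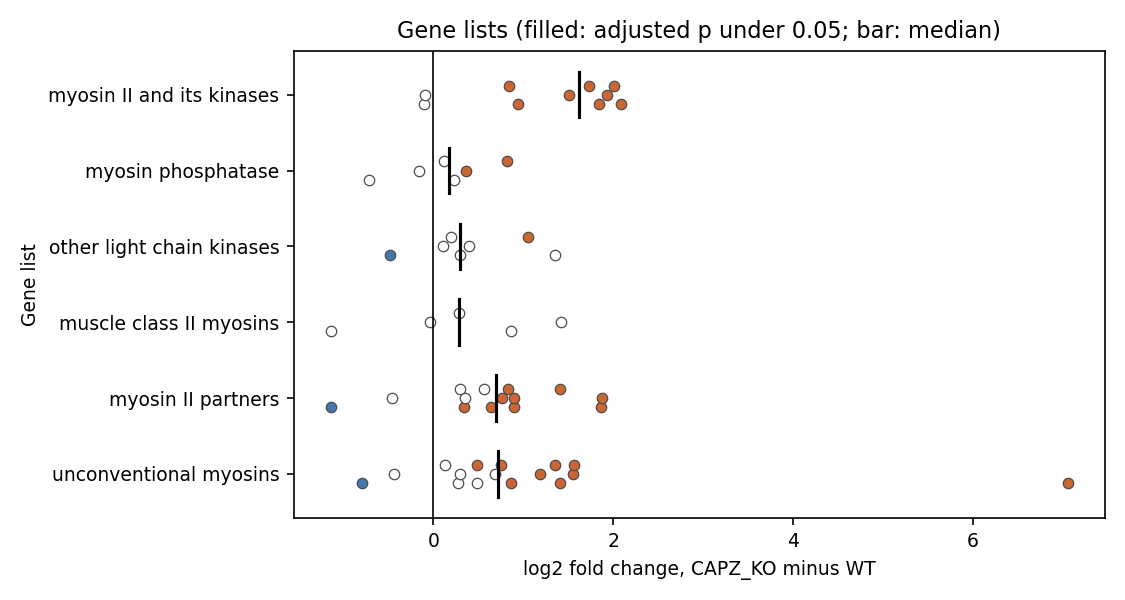
log2 fold change (CAPZ_KO minus WT) of each tested gene of the myosin II set and of the 5 lists around it, filled where the edgeR adjusted p was under 0.05 and open elsewhere, with the median as a bar. The myosin II set has a median of 1.62, the lists have medians from 0.17 to 0.72, and Myo7b lies farthest to the right at 7.06. Myo7b had 2 counts over the WT libraries and passed the filter through CAPZ_KO alone.

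RNA of whole liver also holds that of cell types other than hepatocytes, and markers of several of them moved in the same libraries. Levels of the 10 genes in each cell type were not measured here. The marker counts that follow are to be read beside 22.4% of all tested genes that rose and 19% that fell. The filter let a gene pass on the counts of 1 group alone, so that a marker nearly absent from WT could only be called as a rise. Stellate cell and fibroblast markers rose in 7 of 10 genes, with sums of 558 to 612 CPM in WT and 1094 to 1451 CPM in CAPZ_KO. Dcn and Col3a1 rose by 0.82 and 2.79, and Ecm1 had −0.09 (edgeR adjusted p = 0.745). Of the smooth muscle markers, Tagln, Acta2 and Smtn rose by 2.23, 2.67 and 1.25, and Acta2 averaged 1.52 ± 1.07 CPM in the WT libraries and 9.18 ± 5.10 CPM in the others (SD, n = 4). Myh11, the only other smooth muscle marker tested, had 0.87 and was not called (edgeR adjusted p = 0.0622). Cnn1, Lmod1, Synpo2 and Actg2 had too few counts to be tested. Sinusoidal endothelial markers rose in 2 of 8 genes, near the 22.4% of all tested genes. Their sums were 303 to 474 CPM in WT and 359 to 573 CPM in CAPZ_KO. Clec4g and Stab2 had −0.16 and −0.0064 (edgeR adjusted p = 0.326 and 0.988), and Cdh5 had 0.75 (edgeR adjusted p = 0.0451), which moved to an adjusted p of 0.0502 to 0.112 on leaving out any 1 of WT 1, 3 and 4 and CAPZ_KO 2, 3 and 4. Monocyte and macrophage markers rose in 6 of 8 genes (281 to 485 and 448 to 781 CPM), Kupffer cell markers in 2 of 5 (441 to 1254 and 925 to 3191 CPM) and bile duct cell markers in 4 of 7 (42.7 to 79.6 and 367 to 1087 CPM). Most of that last sum in CAPZ_KO was Spp1, with a mean of 30.2 CPM in WT and 604 CPM in CAPZ_KO, and Krt7 and Krt19 had changes of −0.0054 and −0.23 (edgeR adjusted p = 0.994 and 0.713); these 3 were chosen after their values were seen. Platelet markers rose in 1 of 3 tested genes, too few to set against 22.4% (3.83 to 7.46 and 5.93 to 11.4 CPM). Lymphocyte markers were called in 0 of 7 by edgeR, DESeq2 and limma-voom, and in 0 at an unadjusted p under 0.05 (2.84 to 18.3 and 6.29 to 14.1 CPM). Of the erythroid markers, Alas2 fell, while Hbb-bs and Hba-a1 were listed at 0 in every library (sums of 16.5 to 142 and 7.42 to 12.3 CPM). Of the skeletal muscle markers only Acta1 could be tested, and it rose by edgeR and limma-voom but not by DESeq2 (sums of 0.107 to 0.329 and 1.18 to 46.3 CPM). With 3 counts over the WT libraries and 447 over the CAPZ_KO libraries, Acta1 passed the filter through CAPZ_KO alone, so that only a rise could be called. Its level was 18.5 CPM in CAPZ_KO 2 and 1.44, 1.75 and 0.716 CPM in CAPZ_KO 1, 3 and 4. Hepatocyte markers fell in 7 of 8 genes. The part of these cell types in the rises of the myosin II genes was not tested.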

How the data were processed

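Stranded poly(A) libraries of perfused liver were made per the labels' protocols. The authors deposited whole-number counts of reads for each symbol and library. Per the submitters' processing notes, the tools were STAR 2.5.3a, bcl2fastq, featureCounts, edgeR and R 3.3.1 and the build mm10. Which annotation and strand setting served for counting, and how shared reads were treated, is not given in the sources used here.

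Genes were filtered by filterByExpr of edgeR 4.0.16 (minimum count 10, minimum total 15), which left 12985 of 24421 symbols, scaled by TMM (WT factors 0.774 to 0.847, CAPZ_KO factors 1.18 to 1.33). The test was the robust quasi-likelihood test on all 8 libraries with no covariate and Benjamini-Hochberg adjustment (R 4.3.3, limma 3.58.1). Alternatives used DESeq2 1.42.0, limma-voom, other scalings and filters, a 0.01 threshold, sex as a term, the replicate number as a block and leaving out libraries. Ratios used counts plus 0.5. No library was a duplicate: chi-square over degrees of freedom was at least 26.7 for each same-group pair.

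The 10 genes, the 6 lists and the 11 marker lists were written from textbook knowledge with earlier results of these data known. Named beyond the 10 genes were up to 4 called genes with the smallest p per list, called genes against the majority direction, and the 3 most abundant markers of the smooth muscle, stellate and endothelial lists; any other gene is marked in the text as picked with its values known. A gene that this rule names among the unconventional myosins, and 1 of the 6 lists, are not reported here. Positions and exon lengths are from GENCODE vM21 on GRCm38, where 95.7% of symbols were found.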

Additional observations from a re-analysis of the deposited data

Results flagged for a closer look

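Of 34 groups of 4 values checked for a library far from the others, 3 held one, and chance alone flags about 1 group in 20. Myl12a in WT 1 was at 90.9 CPM while the other WT libraries held 77.1 to 79.2 CPM. Mylk in CAPZ_KO 1 was at 65.7 CPM while the other CAPZ_KO libraries held 46.1 to 48.1 CPM. The log2 ratio of Myl12a to Myl12b in WT 2 was 0.26 while the other WT libraries held 0.0051 to 0.019.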

How the results depend on the processing

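The 8 genes that rose were called under every setting tried (Myl12b has no value where it was summed with Myl12a), and 8 was the count without any 1 library, without both libraries with Xist, and with sex as a term. Over these settings Rock2 ranged from 0.76 to 1.57 and Myh9 from 1.85 to 2.65. Scaling by library sizes alone moved the median of all genes by 0.62. There 8365 genes were called (7665 higher and 700 lower, so that 10 of the 10 genes were higher), 51 of the genes of all 6 lists instead of 32 were called, Capzb was at −0.10 (adjusted p = 0.442), and the direction turned for Rock1 (0.54), Mylk (0.53), Dapk1 (0.15), Ecm1 (0.52), Clec4g (0.46) and Stab2 (0.60). At a threshold of 0.01, 3303 genes and 21 list genes were called; without 1 library the counts were 4485 to 5590 and 26 to 34. Stab2, near 0 throughout, was also above 0 with upper quartile scaling (0.075), a filter of CPM of at least 1 in 4 libraries (0.0049), limma-voom (0.013) and the replicate block (0.015), and ran from −0.22 to 0.11 when single libraries were left out; the same ranges were −0.30 to 0.0080 for Rock1, −0.33 to 0.031 for Ecm1 and −0.031 to 0.201 for the ratio of Myh10 to Myh9. The cause of these turns was not tested.

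Replicate numbers are shared by the groups, but their pairing is not stated. Same-numbered libraries correlated at 0.0089 to 0.303 in their deviations from the group means. WT 1, 3 and 4 each correlated best with the CAPZ_KO library of the same number (0.244, 0.066 and 0.303), and WT 2 with CAPZ_KO 3 (0.035). With the replicate block 5385 genes and 8 of the 10 genes were called, and Ppp1r12c had an adjusted p of 0.0545. For the ratios the smallest exact p of 4 pairs is 0.125 and that of 3 against 4 libraries 0.0571, so that these settings say nothing of their stability; without 1 library the ratio of Rock2 to Rock1 differed by 0.95 to 1.29 and that of Mylk to Rock2 by −1.26 to −0.92. Depth limits Myl9, with 24 to 41 counts in WT.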
